A study of Arabidopsis thaliana with 2 samples.

Results

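NAC transcription factors are plant-specific regulators named after NAM, ATAF and CUC. Each carries a conserved DNA-binding NAC domain at its amino end and a variable activating or repressing end. Members are known for marking organ boundaries, building xylem walls, driving leaf senescence and relaying signals from stressed organelles to the nucleus. The genes described here are the protein-coding rows of the deposited TAIR10 gene table whose short description names a NAC domain containing protein or a NAC (No Apical Meristem) regulator, which gave 100 of 33565 rows. A further 13 NAC genes whose descriptions use other words, such as NAP and VND7, are outside this choice and are summarised separately.

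Shoots of wn1, an Arabidopsis thaliana mutant in the Col-0 background that the labels call whitening, were compared with shoots of wild-type Col-0. Both genotypes were sampled as seedlings of 7 days, raised on half-strength Murashige and Skoog plates at 22 °C under days of 16 h light and nights of 8 h, and the labels add cotyledon to the tissue. The mutated gene is not named in the labels. Each genotype had 1 library, so no difference has a replicate check and no p-value is given.

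Values are FPKM, fragments scaled for transcript length and library size, as the authors deposited them. A log2 difference below is log2 of FPKM + 1, wn1 minus wild type, which understates differences of weakly expressed genes. A gene was called measured at a mean FPKM of at least 1, and higher or lower in wn1 at 2-fold or more on that scale. Steps between low FPKM values put the depth of wn1 at 1.22 times that of wild type, with estimates of 12400000 and 15200000 fragments for wild type and wn1. Ratios of plain FPKM are given with 95% intervals made from these estimated fragments (Clopper-Pearson), which cover counting error only.

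Most of the NAC genes that were measured lay within 2-fold in the pair of libraries. Of the 100 NAC genes, 54 were measured, 2 of them at least 2-fold higher in wn1, 2 at least 2-fold lower and 50 within 2-fold. The 4 called genes were 7.41% of the measured members, beside 7.32% of all 18788 measured genes (3.67% higher and 3.65% lower), so the share called lay at the background. Below 0 were 36 of the 54 members, or 66.7%, against 47.1% of all measured genes. The median log2 difference was -0.19 (quartiles -0.46 and 0.04) for the members and 0.03 (quartiles -0.25 and 0.31) for all measured genes. Among the 20 members with a mean FPKM of at least 10, 14 lay below 0 and the median was -0.26. Of the 10124 genes above that level, 46.3% lay below 0, with a median of 0.04. Dividing each column by its own sum, which lowered the median of all genes to -0.86, put the member median at -0.99 with 1 member called higher and 26 lower, beside 94 of all genes higher and 7026 lower. Centring on the median of all genes left 2 higher and 2 lower, as did scaling to a common total of nuclear protein-coding genes. Log2 differences over all measured genes ran from -16.0 to 19.9. The part of such extreme rows in the column sums was not tested.

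**Figure D1:**
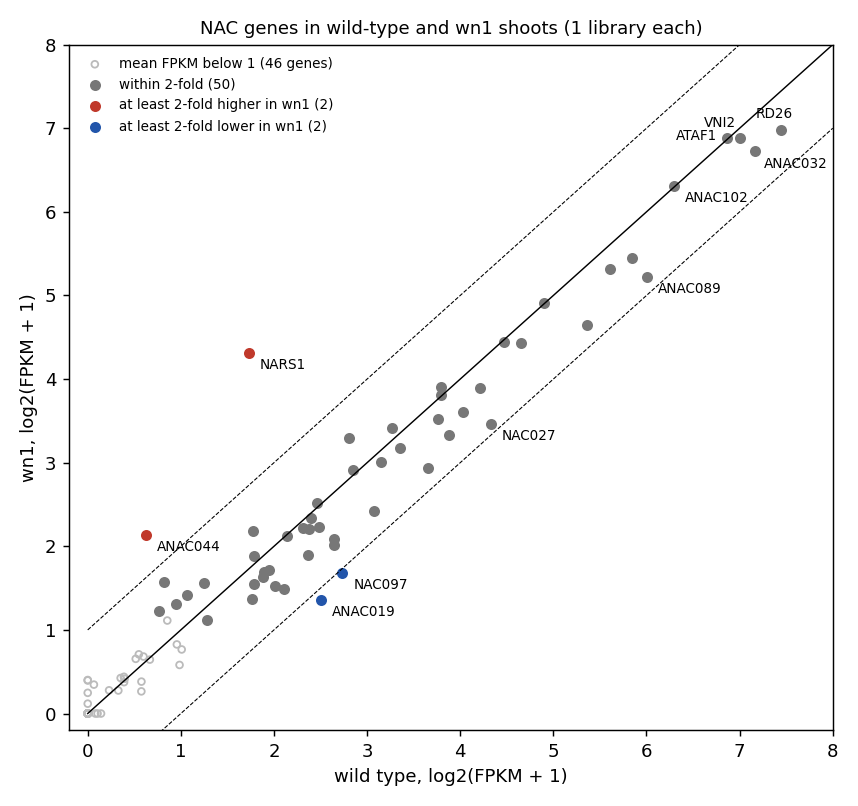
Each point is 1 of the 100 NAC genes, with log2(FPKM + 1) in the wild type on the x axis and in wn1 on the y axis, 1 library each. The solid line marks equal values and the dashed lines 2-fold. NARS1 and ANAC044 lie above the upper line, ANAC019 and NAC097 below the lower line, and NAC027 just inside it.

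**Figure D2:**
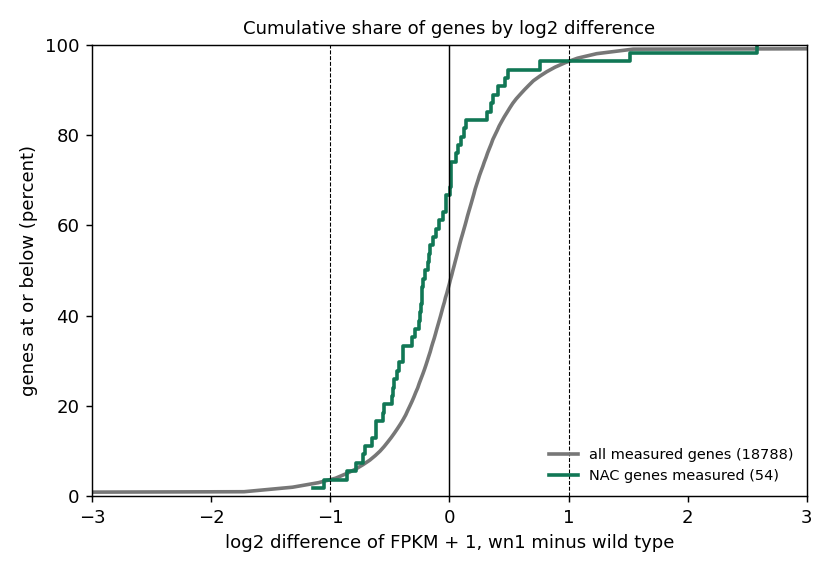
The curves give the percent of genes (y axis) at or below each log2 difference (x axis) for the 54 measured NAC genes and for all 18788 measured genes. The NAC curve is shifted to the left around 0 and meets the other near 2-fold on either side, with 66.7% of members and 47.1% of all genes below 0.

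The 5 highest members on average were RD26, ANAC032, VNI2, ATAF1 and ANAC102. RD26 (AT4G27410), an activator induced by abscisic acid and drought, had 174 FPKM in the wild type and 125 in the mutant, a ratio of 0.718 (0.677 to 0.768). ANAC032 (AT1G77450), a stress and senescence regulator, had 142 and 105 FPKM. VNI2 (AT5G13180), a repressor that binds the xylem regulator VND7, had 127 FPKM in the wild type and 117 in the mutant, a ratio of 0.924 (0.877 to 0.981). The intervals of RD26, ANAC032 and VNI2 all lay below 1, and none of the 3 passed 2-fold. ATAF1 (AT1G01720) had 116 FPKM in the wild type and 117 in the mutant, and ANAC102 (AT5G63790), its close relative, had 77.8 and 78.4. In wild type the order from the top was RD26, ANAC032, VNI2, ATAF1 and ANAC102, while in wn1 VNI2 and ATAF1 stood above ANAC032. The 10 genes with the highest mean made up 74.6% of the summed NAC FPKM in the wild type and 72.5% in wn1, and those sums were 1171 and 984.

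At the other end, 46 members lay under the mean FPKM of 1, of which 22 were listed at 0 in both libraries. The measured share was 54% of the members, against 67.3% of all protein-coding genes. All 6 members between AT1G60240 and AT1G60380, a run of NAC genes with neighbouring identifiers, were listed at 0 in both. The boundary genes CUC1, CUC2 and CUC3, which separate cotyledons and organs from the meristem, had 0.172, 0.278 and 0.514 FPKM in the wild type and 0.212, 0.342 and 0.604 in wn1. NAC028 (AT1G65910), at 0.695 and 1.34 FPKM, lay just inside the filter, and VND5 (AT1G62700), at 0.808 and 1.16, just outside. Listed at 0 in the wild type only were ANAC085, ANAC061, NAC071 and NAC006, with 0.3202, 0.3153, 0.187 and 0.0851 FPKM in wn1. NAC063, NST3 and ANAC025 were listed at 0 in wn1 only, with 0.104, 0.0758 and 0.0585 FPKM in the wild type. All 7 values stand for about 1 to 6 fragments, so no difference was detectable at this depth.

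The largest difference in the family was that of NARS1 (AT3G15510, also ANAC056), known for shaping the seed coat together with its relative NAM (AT1G52880, also NARS2). NARS1 had 2.31 FPKM in the wild type and 18.9 in the mutant, a log2 difference of 2.59 and a ratio of 8.17 (6.12 to 11.0), from about 52.5 and 526 estimated fragments. NAM had 3.96 FPKM in the wild type and 3.66 in the mutant, a ratio of 0.924 (0.683 to 1.26). The coding sequences of the pair are 77.5% identical, and NARS1 shared no window of 50 bases with a transcript of another gene, so reads of that length would not be divided between them.

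NARS1 and NAM each lie beside an abscisic acid and jasmonate responsive member, with no protein-coding gene between. The neighbour of NARS1 is ANAC055 (AT3G15500), which had 4.25 FPKM in the wild type and 4.05 in the mutant. Beside NAM lies ANAC019 (AT1G52890), which had 4.66 FPKM in the wild type and 1.56 in the mutant, a log2 difference of -1.14, 2.98-fold lower (1.98 to 4.70). In each adjacent pair, then, 1 gene differed by over 2-fold while its neighbour was nearly equal in both libraries. ANAC055 and ANAC019 are 80.4% identical in coding sequence and act in the same responses as RD26.

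ANAC044 (AT3G01600) was the second gene called higher. With its relative ANAC085 it is known for halting the cell cycle after DNA damage downstream of SOG1, the NAC factor that directs the plant response to DNA breaks. ANAC044 had 0.538 FPKM in the wild type and 3.39 in the mutant, a log2 difference of 1.51 and a ratio of 6.30 (3.31 to 12.2), from about 11.5 and 88.9 fragments. SOG1 (AT1G25580) itself had 4.59 FPKM in the wild type and 3.71 in the mutant. ANAC044 passed the filter through its level in wn1. After division by column sums its log2 difference was 0.97, no longer past 2-fold, in a setting that put the median of all genes at -0.86. Scaled to a common total of nuclear protein-coding genes, ANAC044 stayed past 2-fold. ANAC085 stood at 0 and 0.3202 FPKM. The remaining members of this stress group were ANAC082 (AT5G09330), which acts when ribosome synthesis is disturbed, at 47.6 and 38.8 FPKM, and ANAC103, a factor of endoplasmic reticulum stress, at 0.317 and 0.335.

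The stretch upstream of ANAC044 is shown because it holds the palindrome to which SOG1 is known to bind, CTT and AAG with any 7 bases between. It starts 65 bases before the annotated gene start in the RefSeq sequence of TAIR10.1. Capitals mark its fixed letters.
ANAC044 upstream: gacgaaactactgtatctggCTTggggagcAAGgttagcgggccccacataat
In the 250 bases before the gene start, this motif was found on either strand in 9.71% of 27443 protein-coding genes and in 17 of the 100 NAC genes, NARS1 and RD26 among them. The same place also holds the fixed letters of the mitochondrial dysfunction motif bound by ANAC013 and ANAC017, CTTG and CA with any 5 bases between, then any 1 base and G. That motif was found in 1.75% of genes and in 4 NAC genes, and the motifs overlap in ANAC044. A match describes the letters and is not a binding site.

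Among 10 genes induced through SOG1 after DNA damage, a list written after the value of ANAC044 was seen, 8 were measured, 1 was at least 2-fold higher and none was lower, with a median of 0.09. GMI1 (AT5G24280), a gene induced by gamma irradiation, had 1.15 FPKM in the wild type and 3.42 in the mutant. BRCA1 (AT4G21070), a DNA repair gene, had 3.05 and 4.73 FPKM. The cyclin gene CYCB1;1 (AT4G37490) had 3.47 and 3.85 FPKM. SMR5, a cell cycle inhibitor, was listed at 0 in both libraries, and TSO2, a ribonucleotide reductase subunit, had 71.5 and 56.2 FPKM. GMI1 was the 1 gene past 2-fold. After division by column sums its log2 difference was 0.38, where the median of all genes was -0.86.

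The second gene called lower besides ANAC019 was NAC097 (AT5G50820), with 5.65 FPKM in the wild type and 2.21 in the mutant, 2.56-fold lower (1.53 to 4.15). It lay just inside the 2-fold threshold at -1.05. Just outside was NAC027 (AT1G64105), with 19.1 FPKM in the wild type and 10.02 in the mutant and a log2 difference of -0.86. That value is uncertain, because 79.4% of the 50-base windows of NAC027 also occur in transcripts of the neighbouring gene AT1G64100.

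Regulators of senescence and abiotic stress were the largest role group, with 12 of 14 members measured, 1 at least 2-fold lower (ANAC019), none higher and a median of -0.25. ORE1 (AT5G39610), a driver of leaf senescence, had 11.6 FPKM in the wild type and 6.62 in the mutant, a ratio of 0.57 (0.454 to 0.718). Its relative ORS1 (AT3G29035), which also promotes senescence, had 6.004 FPKM in the wild type and 8.85 in the mutant, a ratio of 1.47 (1.16 to 1.89). These relatives thus differed in opposite directions, each by more than counting error and by less than 2-fold. ANAC087 (AT5G18270), which promotes cell death in the root cap with ANAC046, had 40.1 FPKM in the wild type and 24.1 in the mutant. ANAC046 (AT3G04060) had 4.52 and 4.72 FPKM, and ANAC047 (AT3G04070), which acts in leaf movement under waterlogging, had 9.24 and 8.06. ATAF2 (AT5G08790) had 17.5 and 13.8 FPKM. JUB1, which delays senescence, was below the filter at 0.588 and 0.563.

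Membrane-tethered NAC factors are held at the endoplasmic reticulum or another membrane by a segment at the carboxyl end and are released by cleavage. Of the 8 members listed as such, 7 were measured, all within 2-fold, 5 below 0, with a median of -0.39. With the membrane-tethered genes outside the chosen descriptions, such as ANAC013, 13 of 14 were measured, 9 below 0, and the median was -0.02. In the translated RefSeq coding sequences, 10 members had a hydrophobic stretch of 19 residues within the last 60 (mean Kyte-Doolittle hydropathy of at least 1.6), and these included all 8. The other two were NAC001 and NAC028. The 9 measured genes with the stretch had a median of -0.39 and 6 lay below 0, while the 45 measured genes without it had a median of -0.18 and 30 lay below 0. None of the 9 and 4 of the 45 passed 2-fold.

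Within that group the highest mean was that of ANAC089 (AT5G22290), linked to fructose sensing, at 63.4 FPKM in the wild type and 36.4 in the mutant, a log2 difference of -0.79. ANAC078 (AT5G04410) and ANAC053 (AT3G10500), which together raise proteasome genes under protein stress, had 56.3 and 15.3 FPKM in the wild type, against 42.8 and 11.2 in the mutant. In wn1, then, ANAC078 stood above ANAC089. ANAC062 (AT3G49530), which responds to cold and endoplasmic reticulum stress, had 13.7 and 9.02 FPKM. All 4 were lower in wn1 by more than counting error. ANAC017 (AT1G34190), the relay of mitochondrial signals to the nucleus, had 28.9 FPKM in the wild type and 29.0 in the mutant, a ratio of 1.004 (0.924 to 1.099). ANAC013 (AT1G32870), its partner in that pathway and a gene outside the chosen descriptions, had 18.3 and 23.02 FPKM.

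**Figure D3:**
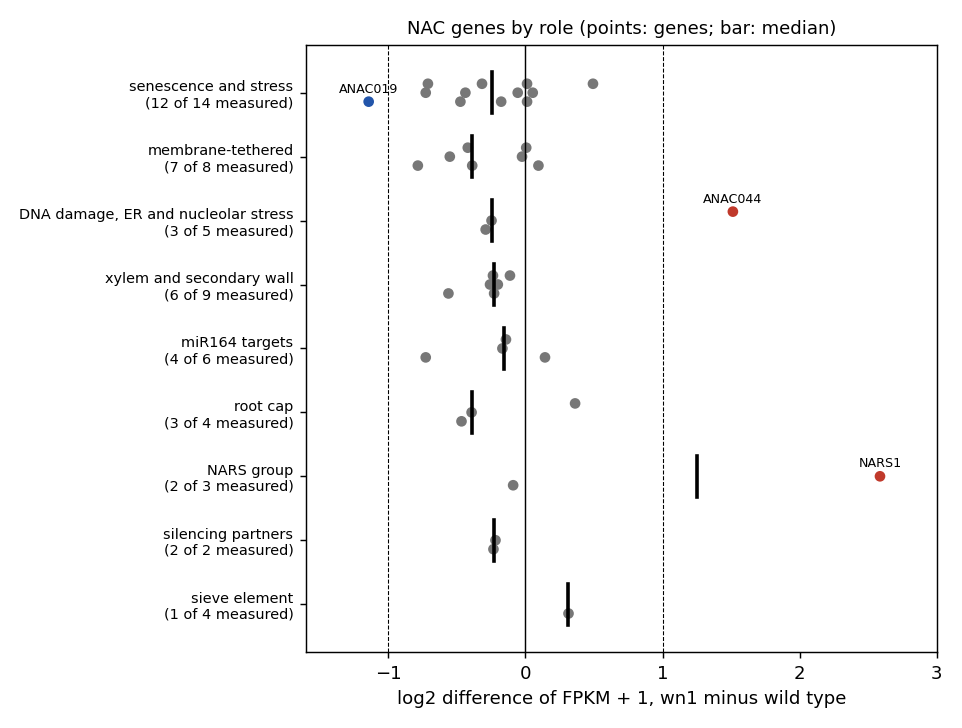
Points are the measured NAC genes of each role group by log2 difference of FPKM + 1, wn1 minus wild type (x axis), bars are group medians and dashed lines 2-fold. The medians lie between -0.39 and -0.16 in 7 of the 9 groups, and the NARS group and the sieve element group, with 2 and 1 measured genes, lie above 0.

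Xylem and secondary wall regulators had small differences. All 6 measured members of 9 lay below 0 and none passed 2-fold, with a median of -0.23. The counting intervals of VND2, VND3, SND2 and ANAC075 included a ratio of 1. SND3 (AT1G28470) had 5.27 FPKM in the wild type and 3.25 in the mutant, the largest difference of the group at -0.56. VND2 and VND3, which can turn cells into vessel elements, had 2.45 and 2.85 FPKM in the wild type, against 1.93 and 2.28 in the mutant. SND2 had 2.72 and 2.23 FPKM, and NST1 was listed at 0 in both libraries. With the vessel and fibre regulators outside the chosen descriptions, such as VND4 and VND7, all 10 measured of 15 lay below 0 with a median of -0.25.

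Genes that these factors switch on also lay mostly below 0. Of 13 secondary wall target genes 11 were measured, all within 2-fold and 10 below 0, with a median of -0.34. The wall cellulose synthase gene CESA8 (AT4G18780) had 7.18 FPKM in the wild type and 5.25 in the mutant, and the vessel protease gene XCP2 (AT1G20850) had 63.9 and 48.7. In whole shoots, fewer cells of a type and less RNA per cell cannot be told apart.

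Several NAC genes are kept low by the microRNA miR164, which pairs with their coding sequence and directs cleavage. The mature miR164 and the sites are shown because they define this group. The seed (bases 2 to 8) is in capitals.
ath-miR164a: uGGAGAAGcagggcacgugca
ath-miR164c-5p: uGGAGAAGcagggcacgugcg
In the sites, capitals mark bases that do not pair with miR164a by Watson-Crick rules.
NAC1: AgcacgtAccctgcttctcca
ANAC079: tTTacgtgccctgcttctcca
ANAC100: tCTacgtgccctgcttctcca
AT3G12977: AgcaTgtAccctgcttctcca
CUC1: AgcacgtgTcctgTttctcca
CUC2: AgcacgtgTcctgTttctcca
ORE1: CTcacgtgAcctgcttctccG
With up to 4 mismatches over 21 bases, 14 of 37885 nuclear genes held a site in a RefSeq transcript, and 7 of those 14 were NAC genes of the family, each with the site in the coding sequence. They comprise the 6 known targets and AT3G12977.

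Of the 6 known targets 4 were measured, all within 2-fold, with a median of -0.16. NAC1 (AT1G56010), an auxin-responsive factor of lateral root growth, had 8.66 FPKM in the wild type and 9.66 in the mutant. ANAC079 (AT5G07680) and ANAC100 (AT5G61430) had 7.88 and 4.21 FPKM in the wild type, against 7.04 and 3.64 in the mutant. AT3G12977 had 1.09 and 1.67 FPKM. Of the genes with a site, ORE1 differed most, and CUC1 and CUC2, whose sites are identical, were below the filter. The precursor genes MIR164A, MIR164B and MIR164C were listed at 0 in both libraries, so the table says nothing on the microRNA itself.

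Root cap and phloem members were present at low levels. BRN1 (AT1G33280) and BRN2 (AT4G10350), which mature the root cap, had 4.15 and 2.41 FPKM in the wild type, against 2.73 and 1.59 in the mutant. SMB (AT1G79580) of the same group had 0.930 and 1.48 FPKM and passed the filter through its level in wn1. Although the labels name shoots, all 8 root markers were measured in both libraries, with a summed FPKM of 160.5 in the wild type and 120.2 in the mutant, a median of -0.35 and 7 of 8 below 0. EXPA18, a root hair expansin, had 51.3 and 26.6 FPKM, and CASP1 of the root endodermis had 25.1 and 20.6. Their part in the values of the root cap genes was not tested. In the sieve element group, ANAC057 was the only measured gene of 4, at 1.37 and 1.94 FPKM. ANAC045 and ANAC086, which clear the nucleus from sieve elements, had 1.01 and 0.430 FPKM in the wild type and 0.701 and 0.574 in the mutant. The list of sieve element genes had 4 of 5 measured, 1 at least 2-fold lower, none higher, 3 above 0 and a median of 0.12. The gene called lower was APL (AT1G79430), the phloem identity factor, with 10.12 FPKM in the wild type and 3.37 in the mutant. SEOR1 (AT3G01680), a sieve element filament protein gene, had 13.6 and 25.998 FPKM, a ratio of 1.91 (1.71 to 2.14). The targets NEN1 and NEN2 had 1.97 and 2.08 FPKM in the wild type, against 2.34 and 2.22 in the mutant, and NEN4 (AT4G39810) had 1.30 and 0.194, below the filter.

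The remaining members are given by their role or level. ANAC052 (AT3G10490) and ANAC050 (AT3G10480), partners of the histone demethylase JMJ14, had 24.1 and 12.6 FPKM in the wild type, against 20.5 and 10.5 in the mutant. ANAC090, ANAC061 and ANAC036, linked to salicylic acid, had at most 0.3153 FPKM in either library. Of the 43 members without a role group here, 15 were measured, 14 within 2-fold, 8 below 0 and 7 above, with a median of -0.03. LOV1 (AT2G02450), a regulator of flowering time and cold response, had 5.23 FPKM in the wild type and 3.05 in the mutant, a ratio of 0.584 (0.442 to 0.782). NAC099 (AT5G56620) had 0.759 and 1.99 FPKM, a log2 difference of 0.76 that passed 2-fold with a pseudocount of 0.1. Like ANAC044, NAC099 passed the filter through its level in wn1. The 13 NAC genes outside the chosen descriptions had 11 measured, all within 2-fold, with a median of -0.10. The highest of them was the senescence factor NAP (AT1G69490), at 101.4 FPKM in the wild type and 76.0 in the mutant.

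Genes known to be switched on by senescence and stress NAC factors lay mostly below 0. The list of senescence and chlorophyll breakdown genes had 8 of 10 measured, 5 below 0, 2 at least 2-fold lower, none higher and a median of -0.41. Of all measured genes, 47.1% lay below 0. SAG29 (AT5G13170), a sugar transporter gene of senescing leaves, had 275 FPKM in the wild type and 63.5 in the mutant, a log2 difference of -2.10. BFN1 (AT1G11190), a nuclease gene that ORE1 activates, had 19.5 and 7.14 FPKM. SAG113 (AT5G59220), a phosphatase gene downstream of NAP, had 217 and 112 FPKM. Chlorophyll breakdown genes split, with NYC1 (AT4G13250), a chlorophyll b reductase, at 31.9 FPKM in the wild type and 58.4 in the mutant and SGR1 (AT4G22920), which removes the magnesium, at 33.9 and 22.0. SAG12, the marker of late senescence, was at 0.0629 and 0 FPKM.

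The list of abscisic acid, jasmonate and stress genes had 8 of 10 measured, 6 below 0, 3 at least 2-fold lower, none higher and a median of -0.68. NCED3 (AT3G14440), a step of abscisic acid synthesis that ATAF1 activates, had 69.5 FPKM in the wild type and 18.3 in the mutant, while ATAF1 differed by 0.01. COR15A (AT2G42540), a protective cold-response gene, had 102 and 31.7 FPKM. The difference of the jasmonate synthesis gene LOX2 was -5.44. ERD1 (AT5G51070), a plastid protease regulator that RD26 and its relatives activate, had 57.2 and 59.2 FPKM, so the list held genes well below 0 and genes near 0. Seed markers were also lower, 6 of 9 measured by at least 2-fold, with a median of -1.55 and summed FPKM of 260 in the wild type and 98.7 in the mutant. The seed storage protein gene CRC had 24.3 and 1.597 FPKM. Their part in the abscisic acid list was not tested. All 6 shoot markers were measured, 1 at least 2-fold lower and none higher, with a median of -0.24. The one called lower was GLK1 (AT2G20570), a regulator of chloroplast development, at 72.8 and 11.3 FPKM.

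The mitochondrial dysfunction list, whose genes ANAC013 and ANAC017 activate, had 9 of 10 measured, 1 at least 2-fold higher, none lower and a median of -0.33. AOX1A (AT3G22370), the alternative oxidase and the usual marker of this response, had 46.1 FPKM in the wild type and 38.6 in the mutant. CRF6 (AT3G61630) had 25.1 and 15.6 FPKM, and NDB2 (AT4G05020), an alternative NADH dehydrogenase, had 38.2 and 24.1. The gene called higher was AT2G21640, with 3.67 FPKM in the wild type and 11.7 in the mutant, a log2 difference of 1.44. After division by column sums that difference was 0.58, where the median of all genes was -0.86. ANAC013 itself, at a ratio of 1.26 (1.12 to 1.43), and UGT74E2 (AT1G05680), a glucosyltransferase gene at 22.1 and 23.9 FPKM, were the others above 0.

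**Figure D4:**
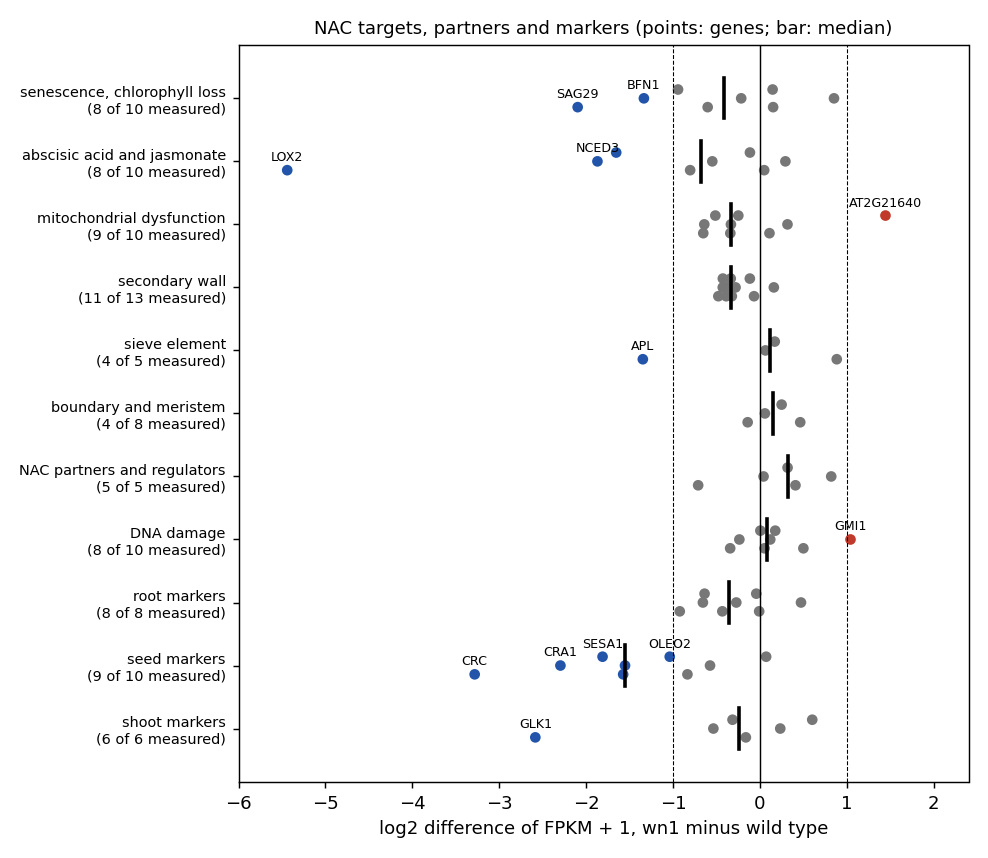
Points are the measured genes of each target, partner or marker list by log2 difference of FPKM + 1, wn1 minus wild type (x axis), bars are list medians and dashed lines 2-fold. LOX2 at -5.44 and SAG29 at -2.10 lie far to the left in their lists, while all 11 secondary wall genes lie within 2-fold.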

How the data were processed

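RNA sequencing of 2 samples, 1 wild-type and 1 wn1 shoot library, was used. The authors deposited FPKM per gene. The submitters' processing notes name Bowtie and TAIR10. The counter, the versions and the strand setting were not given. Columns were matched to samples by name, and 2 columns of other material were not used. Without a stated strand, overlapping genes cannot be separated.

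A pseudocount of 1 was added to the deposited FPKM, log2 differences (wn1 minus wild type) were taken for all rows, and rows averaging 1 FPKM or more were kept. Relative depth came from 994 single-transcript genes with both values under 0.3 FPKM: with a step of 0.819, 84.8% of their ratios became quotients of integers no greater than 6 (tolerance 0.5%), whereas a step larger by 3 percent gave 1.41%. Absolute depth used RefSeq transcript lengths and is approximate. Sequences, names and gene order came from RefSeq TAIR10.1, in which all 100 genes were found, and no coordinates are printed because the table's build is TAIR10. The call rule was tested on simulated data, which cannot show how replicate libraries would vary.

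Named genes were drawn from those past 2-fold, the highest and the most different of each role group or list (some list genes that met this are summarised in counts), the 10 highest members, those next to a threshold and those listed at 0 in 1 library. Other members named for their role, and list genes named as known markers or partners, were picked with their values in view. A result on a listed gene is not reported here. The members and lists were chosen with earlier results of these data known. Python 3.11.15, pandas 2.3.3 and SciPy 1.17.1 were used.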

Additional observations from a re-analysis of the deposited data

How the results depend on the processing

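With 1 library per genotype replicate error cannot be estimated. Members under a mean of 1 FPKM rest on few fragments, at most about 35 estimated per library. The member median kept its sign with a pseudocount of 0.1 (-0.24), at a mean FPKM of at least 5 (-0.22), centred (-0.22) and scaled to a common total of nuclear protein-coding genes (-0.17). With no filter it was 0, as was the median of all genes. Requiring a mean FPKM of at least 5 left 27 members, with 1 higher (NARS1) and 0 lower, beside 523 and 507 of all genes. A 4-fold threshold likewise gave 1 member higher and 0 lower. Dividing by column sums gave 1 higher, 26 lower and a median of -0.99, beside 94 and 7026 of all genes. The call lost upwards was ANAC044, in a setting that moved the median of all genes from 0.03 to -0.86, and the cause was not tested. The pseudocount of 0.1 gave 3 higher and 2 lower, beside 975 and 945 of all genes (690 and 685 in the main setting). Added after the data were seen, leaving out members under 20 estimated fragments and adding the NAC genes outside the chosen descriptions gave medians of -0.20 and -0.18, with 2 higher and 2 lower in each. No paired analysis was possible because each genotype has 1 library.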

Other observations

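Genes whose products act on NAC factors had no member past 2-fold. Of 5 genes listed as partners or regulators, all were within 2-fold and 4 lay above 0, with a median of 0.32 (with a pseudocount of 0.1, SRO5 passed 2-fold lower). RCD1 (AT1G32230), which binds ANAC013 and ANAC017 and restrains them, had 86.7 FPKM in the wild type and 154 in the mutant, a log2 difference of 0.82. EIN3 (AT3G20770), the ethylene factor upstream of ORE1, had 54.4 and 72.6 FPKM, while EIN2 (AT5G03280) had 26.9 and 27.7. SRO5, a small relative of RCD1, had 2.60 FPKM in the wild type and 1.20 in the mutant. After division by column sums the median of these genes was -0.62, against -0.86 for all genes.

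Boundary and meristem genes linked to the CUC factors had 4 of 8 measured, all within 2-fold, with a median of 0.15. STM, which maintains the shoot meristem and acts with the CUC genes, had 1.65 FPKM in the wild type and 2.15 in the mutant, and KNAT6, a related homeobox gene, had 6.57 and 9.44. WUS, the organiser of the meristem, was listed at 0 in both libraries.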
